A study of Mus musculus with 8 samples.

Results

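Whole ankle joints carrying a human TNF transgene were set against wild-type ankle joints. The arrays were chosen by their titles: 3 arrays of mice with the transgene and normal sphingosine kinase 1 (hTNF) and 2 arrays of wild-type mice with the same normal kinase, 5 of the 8 arrays of the series. All mice were 5 months old. The 3 remaining arrays, of transgenic mice labelled functionally null for the kinase (Sphk1), entered the filter, the choice of probe sets and the estimate of the spread. They are otherwise given only in checks of arrays and processing and in 1 comparison beside hTNF. No source used here gives the promoter and line of the transgene, the strain, or whether arrays of 1 group came from separate litters, so each p-value covers array-to-array spread alone, and some of that may be technical.

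TNF is a cytokine made mainly by macrophages that acts through receptors on stromal, vascular and immune cells, and mice that overproduce it develop an erosive arthritis in which the joint lining thickens and fills with myeloid cells. Phagocytes of this kind depend on a fast-turning actin cortex, immune-receptor kinases, lysosomes and a glycolytic metabolism. The surrounding tissue of an ankle holds tendon, bone, cartilage, nerve, vessels, fat and some muscle, whose growth and positional signals (hedgehog, Wnt, FGF, semaphorins) are less often described in this setting. The largest inflammatory rises and the bulk losses of muscle and fat genes are left aside here in favour of those other programmes.

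Values are deposited log2 array intensities, where a difference of 1 is a change of 2-fold in summarised brightness. Differences are hTNF minus wild type, with the standard error (SE) of the limma fit for 3 arrays against 2. A probe set was called at a limma adjusted p under 0.05, with Benjamini-Hochberg adjustment over all 24115 tested probe sets, and only called genes are said to have risen or fallen. A gene is represented by its brightest tested probe set, which gave 12362 genes, of which 16.5% were called higher and 19.6% lower, with a median difference of -0.02 log2 and a median SE of 0.14. Over probe sets 7965 were called (33.0%), 4013 higher and 3952 lower, and without wild-type replicate 1 the total was 4695. The hTNF and wild-type arrays did not overlap for 63.7% of genes and 61.5% of probe sets, so a lack of overlap is common here and is given as a description.

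Several array-wide facts touch the results. Array medians lay between 6.84 and 6.89 log2 over all 8 arrays of the series. Wild-type and hTNF arrays correlated at 0.889 to 0.916 over tested probe sets, and hTNF arrays with each other at 0.965 to 0.985. The actin control, a sign of RNA integrity, read 0.37 and 0.45 log2 higher at its 3' end than at its 5' end in wild type and 0.47 to 0.60 higher in hTNF. The female transcript Xist and the Y-linked Eif2s3y read 13.09 and 6.91 on wild-type replicate 2 and 13.05 and 6.60 on hTNF replicate 1, where Eif2s3y lay below the dim filter (6.87, the median of the whole table), against 13.16 and 3.81 on hTNF replicate 3. Wild-type replicate 1 read 7.45 and 8.86 and hTNF replicate 2 read 7.29 and 8.75, a male pattern. Both groups thus mixed arrays of male pattern with Xist-high arrays. Leaving out wild-type replicate 1 also leaves out the only wild-type array of male pattern. No source used here says whether animals were pooled. The probe set of mouse Tnf read 6.88 and 6.75 in wild type and 7.93, 8.03 and 8.14 in hTNF (1.22 ± 0.14 log2, limma adjusted p = 2.58e-04). Whether it also reads the human transgene is not given, so it does not check the labels.

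The labelled tissue was checked against marker genes. Joint and connective tissue genes were bright: the lubricating proteoglycan Prg4 read 14.49 and 14.52 in wild type and 14.30 to 14.39 in hTNF and was not called (limma adjusted p = 0.131), and the bone and tendon collagen Col1a1 rose by 0.82 ± 0.09 (limma adjusted p = 2.76e-04), although a second Col1a1 probe set did not (-0.09, adjusted p = 0.768). The cartilage collagen Col2a1 overlapped between groups (9.78 and 10.41 against 9.47 to 9.99), while the cartilage proteoglycan Acan fell by 1.35 ± 0.14. The adipokine Adipoq fell by 1.62 ± 0.20 and the skeletal muscle actin Acta1 by 0.53 ± 0.09.

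Markers of other cell types moved with the groups. Of 22 macrophage and monocyte markers 20 were called higher and none lower, and their mean level was 9.08 and 9.25 in wild type and 11.11 to 11.54 in hTNF. Muscle markers fell in 37 of 39 cases (mean 13.47 and 13.49 against 11.86 to 12.22), adipocyte markers in 16 of 17 (at most 11.09 against 9.13 to 9.32), and Schwann cell markers in 7 of 7 (10.38 and 10.41 against 9.10 to 9.37). Other probe sets of the Schwann cell marker Mbp read -1.86 to -1.30, except those at 0.53 and 1.30, which were called higher. Fewer cells of a type and less RNA per cell cannot be told apart in such bulk samples, and the part of these shifts in the gene results below was not tested. Skin, granulocyte and proliferation lists spread widely within groups. The skin mean ran from 6.22 to 11.07 across the 3 hTNF arrays, and its leading keratin Krt14 read 8.01 and 6.89 against 12.32, 6.48 and 9.38. The granulocyte mean was 7.62 and 10.33 on the 2 wild-type arrays, and the proliferation mean 7.30 and 8.52. Of 18 proliferation genes 11 were called higher, against 2 without wild-type replicate 1, 17 without replicate 2, and 7, 6 and 5 without hTNF replicates 1, 2 and 3.

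**Figure D1:**
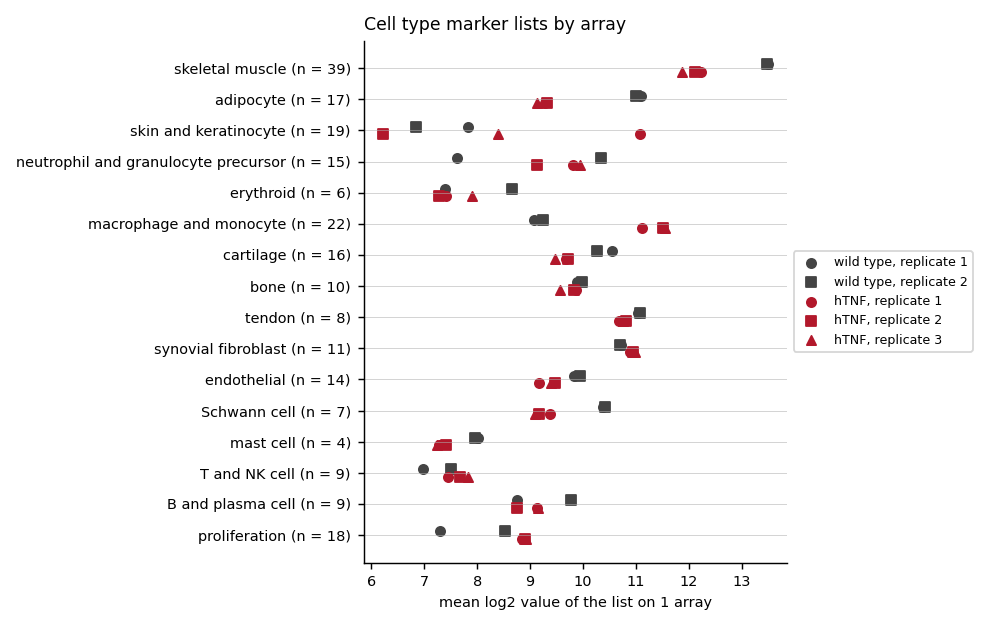
Mean log2 value of each cell type marker list (rows, with the number of genes tested) on each of the 2 wild-type (grey) and 3 hTNF (red) arrays, 1 point an array. Macrophage means of hTNF lie above both wild-type arrays and muscle, adipocyte and Schwann cell means below them, whereas skin means spread from 6.22 to 11.07 within hTNF and granulocyte means from 7.62 to 10.33 within wild type.

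The phagocyte machinery rose broadly. Of 38 genes of actin remodelling and phagocytosis 32 rose and 1 fell, where 16.5% of all genes rose and 19.6% fell, with a median of 0.81 log2 against -0.02 over all genes. The actin-bundling plastin Lcp1 read 9.74 and 10.37 in wild type and 11.82, 12.06 and 12.10 in hTNF (1.94 ± 0.18, limma adjusted p = 1.06e-04). Was, the protein that triggers branched actin in blood cells, read 7.50 and 8.04 against 8.96, 9.41 and 9.46 (1.51 ± 0.19, adjusted p = 4.30e-04). All 3 transgenic arrays lay above both wild-type arrays for both genes. The myosins Myo1g (1.76 ± 0.17) and Myo1f (1.49 ± 0.15) and the ARF exchange factor Cyth4 (1.86 ± 0.19) rose with them. The 1 gene that fell was the membrane linker Rdx (-0.54 ± 0.09, adjusted p = 0.00164), whose other probe sets read -0.35 and 0.05 and were not called.

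Immune-receptor kinases and their adaptors rose in most cases. These proteins relay signals from Fc, integrin and cytokine receptors, and 22 of the 27 measured rose and none fell (median 0.96). Pik3r5, a regulatory subunit of PI3-kinase gamma, read 7.57 and 7.76 in wild type and 9.76, 10.26 and 10.23 in hTNF, a rise of 2.42 ± 0.18 or 5.35-fold (limma adjusted p = 3.04e-05). The inhibitory adaptor Dok2 read 8.64 and 8.44 against 10.65, 10.57 and 10.72 (2.11 ± 0.13, adjusted p = 1.28e-05). For both, the lowest transgenic array stood about 2 log2 above the highest wild-type array. The Src-family kinase Fgr (2.17 ± 0.19), the adaptor Lcp2 or SLP-76 (1.97 ± 0.22) and the linker Lat2 (1.83 ± 0.18) rose as well.

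Receptors that restrain or aid the activation of immune cells, listed with some of their ligands, rose in most cases. Of 26 measured inhibitory and co-stimulatory receptors and ligands 19 rose and 2 fell (median 1.03). Of the 19, 6 rose from a wild-type mean below the dim filter of 6.87 log2, so the size of those rises depends on the background. Havcr2 or TIM-3, an inhibitory receptor of T cells and myeloid cells, read 6.20 and 5.34 in wild type and 8.88, 8.87 and 9.08 in hTNF (3.17 ± 0.22, limma adjusted p = 2.47e-05). Pirb, which carries inhibitory motifs and binds class I molecules, read 7.71 and 8.17 against 9.78, 10.60 and 10.64 (2.40 ± 0.26, adjusted p = 1.91e-04). The activating receptor Cd300lb rose by 2.21 ± 0.17 and the collagen receptor Lair1 by 1.59 ± 0.23. An inhibitory ligand and its receptor diverged: Cd200r1, carried by myeloid cells, rose by 1.98 ± 0.21, while its ligand Cd200, carried by stromal cells and neurons, read 10.10 and 10.20 against 9.69, 9.69 and 9.48 and fell by 0.53 ± 0.11 (adjusted p = 0.00509). A second pair moved together, since the inhibitory receptor Sirpa rose by 1.49 ± 0.11 and its ligand Cd47 by 1.01 ± 0.11, with 1 other Cd47 probe set not called (0.37). The T cell co-stimulator Cd28 fell by 0.94 ± 0.17.

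Promoters of every list were searched for 5 motifs in the RefSeq table, and 2 matches with a high share were chosen for display after the shares were seen. Of the receptor list, 20 genes had a promoter there, and 4 of 22 promoters (18.2%) held the letters GAGGAAGT, a core of sites of the myeloid factor PU.1, on either strand, against 3.20% of all 32851 promoters of the same length. The windows below show the match in capitals for a receptor with the largest rise, for Pirb, and for Btla, which overlapped between groups (8.53 and 9.37 against 8.87 to 8.91). They are from build GRCm38.p6, end before the gene start, and are read 5′ to 3′ on the gene's strand. A match is a description of these letters and not a bound site.
Havcr2, chr11:46454888-46454930, plus strand: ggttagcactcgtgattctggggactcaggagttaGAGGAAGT
Pirb, chr7:3720460-3720537, minus strand: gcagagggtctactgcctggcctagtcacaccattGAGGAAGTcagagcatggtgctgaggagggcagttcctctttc
Btla, chr16:45224284-45224336, plus strand: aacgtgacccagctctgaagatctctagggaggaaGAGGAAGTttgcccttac
Spi1 itself, the gene of PU.1, read 8.37 and 8.38 in wild type and 9.92, 10.64 and 10.31 in hTNF (1.91 ± 0.19, limma adjusted p = 1.47e-04).

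Both chains of the GM-CSF receptor rose. Csf2ra, its ligand-binding chain, read 8.55 and 8.31 in wild type and 10.65, 11.22 and 11.07 in hTNF (2.55 ± 0.17, limma adjusted p = 2.09e-05). The shared signalling chain Csf2rb read 8.99 and 9.46 against 11.05, 11.63 and 11.60 (2.20 ± 0.20), and its mouse-specific relative Csf2rb2 rose by 2.18 ± 0.19. These 2 genes are close in sequence, and whether their probe sets tell them apart was not tested. Il13ra1, part of the IL-4 and IL-13 receptor, rose by 2.12 ± 0.14 on its brightest probe set and by 2.20 to 2.38 on 3 others, its decoy Il13ra2 overlapped between groups (-0.08 ± 0.18), and Il4ra rose by 0.85 ± 0.14, with another probe set at 1.13 and a remaining one not called. Over the list of haematopoietic cytokine receptors, which also holds some cytokines, 18 of 25 rose and none fell (median 0.85).

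Of 26 measured cell death genes 17 rose and 1 fell (median 0.84). The inflammasome adaptor Pycard read 8.52 and 9.22 in wild type and 10.81, 10.51 and 10.76 in hTNF (1.82 ± 0.21, limma adjusted p = 2.53e-04). Casp4, a sensor of intracellular lipopolysaccharide, rose by 1.61 ± 0.20, and Gsdmd, the pore-forming protein that it cleaves, read 8.57 and 8.87 against 9.82, 10.26 and 10.34 (1.42 ± 0.17). The pro-apoptotic Bid rose by 1.52 ± 0.16 and the TNF-receptor-associated inhibitor Birc3 by 1.77 ± 0.20. Bcl2, which protects from apoptosis, fell by 0.72 ± 0.12, and its 3 other probe sets read between -0.90 and -0.35.

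**Figure D2:**
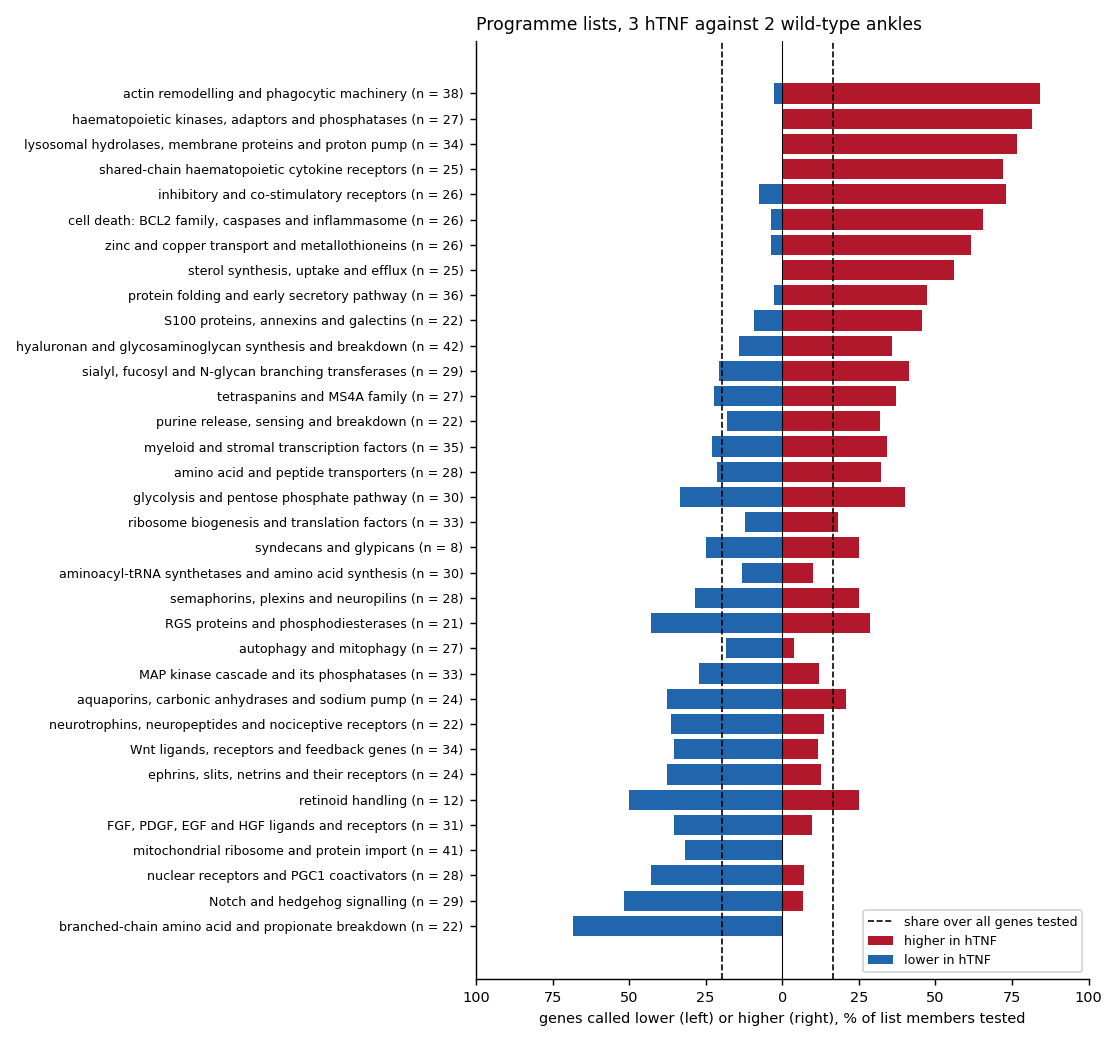
Percent of tested members of each of the 34 programme lists called higher (red, right) or lower (blue, left) in 3 hTNF against 2 wild-type arrays, with dashed lines at the shares over all genes, 16.5% and 19.6%. The lists run from actin remodelling (84.2% higher, 2.63% lower) to branched-chain amino acid breakdown (0.0% higher, 68.2% lower).

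Lysosomal genes rose in 26 of 34 cases and none fell (median 0.69). Cathepsins, the proteases of the lysosome, rose in 7 of 8 cases. Ctss, used in antigen processing, read 11.60 and 12.13 in wild type and 13.78, 13.72 and 13.83 in hTNF (1.91 ± 0.13, limma adjusted p = 2.07e-05), and Ctsz read 11.15 and 11.26 against 12.66, 12.83 and 12.74 (1.54 ± 0.10). Ctsd was the exception (12.70 and 12.48 against 12.69 to 13.09, adjusted p = 0.0650). Subunits of the proton pump that acidifies the lysosome rose in 7 of 10 cases, and in 4 without wild-type replicate 2. Its catalytic subunit Atp6v1a rose by 1.23 ± 0.13. The subunit Atp6v0d2, enriched in osteoclasts and macrophages, read 8.07 and 9.21 against 10.10, 10.21 and 9.98 (1.46 ± 0.26, adjusted p = 0.00267). Tfeb, a factor that drives lysosomal genes, did not rise with them (-0.40 ± 0.14, adjusted p = 0.0575).

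Lysosomal genes are known to share an E-box, TCACGTGA, which reads the same on both strands. It was present in 6 of 31 promoters of the 26 list genes found in the table (19.4%) and in 0.974% of all promoters of the table. The windows show the E-box in capitals for 3 genes that rose and 2 that were not called, all before the gene start on GRCm38.p6 and from RefSeq. Gla, which degrades glycolipids, holds it at 2 places.
Gla, chrX:134601158-134601255, minus strand: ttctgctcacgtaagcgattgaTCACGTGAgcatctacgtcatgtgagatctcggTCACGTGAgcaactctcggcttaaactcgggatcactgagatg
Atp6v1a, chr16:44139349-44139426, minus strand: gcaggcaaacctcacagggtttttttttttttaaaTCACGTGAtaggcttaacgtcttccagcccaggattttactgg
Ctsa, chr2:164833725-164833772, plus strand: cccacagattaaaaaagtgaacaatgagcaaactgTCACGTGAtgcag
Ctsd, chr7:142387884-142387961, minus strand: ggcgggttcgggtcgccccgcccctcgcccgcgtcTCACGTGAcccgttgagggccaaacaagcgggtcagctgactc
Mcoln1, chr8:3500438-3500515, plus strand: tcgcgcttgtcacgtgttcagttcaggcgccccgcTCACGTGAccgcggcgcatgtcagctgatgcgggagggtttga
Gla rose by 1.64 ± 0.21 from a wild-type level below the dim filter (6.48 and 6.69 against 8.08, 8.35 and 8.24), Atp6v1a by 1.23 and Ctsa by 0.95 ± 0.09, with another Ctsa probe set not called (0.23). The calcium channel Mcoln1 was at 9.46 and 9.16 against 9.23, 9.55 and 9.48 (0.11 ± 0.14). The sixth gene with the letters, Atp6v0d1, holds them after the gene start and rose by 0.47 ± 0.12, a call that ended without wild-type replicate 1 (limma adjusted p = 0.0600) or 2 (0.0716). Members with the E-box thus included both genes that rose and genes that did not.

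Glycolytic genes moved in both directions. Of 30 genes of glycolysis and the pentose phosphate pathway 12 rose and 10 fell (median 0.13). The isozymes below were chosen after their values were seen, and no count of isozymes was made. At phosphofructokinase, which commits sugar to glycolysis, the liver-type Pfkl read 9.60 and 8.94 in wild type and 10.34, 10.70 and 10.70 in hTNF (1.31 ± 0.20, limma adjusted p = 0.00111) and the platelet-type Pfkp rose by 1.22 ± 0.20, whereas the muscle-type Pfkm read 13.99 and 13.78 against 12.72, 12.71 and 12.44 (-1.26 ± 0.18). At phosphoglycerate mutase the widely expressed Pgam1 rose by 1.80 ± 0.11 (10.51 and 10.62 against 12.54, 12.24 and 12.33) and the muscle form Pgam2 fell by 1.65 ± 0.28 (13.46 and 13.30 against 11.80, 12.01 and 11.38). No array of 1 group reached into the range of the other for these 5 genes. The brain-type aldolase Aldoc rose by 2.42 ± 0.17, from 6.86 and 6.98 to between 9.13 and 9.55, while the muscle form Aldoa, whose call ended without wild-type replicate 2 (adjusted p = 0.0707), fell by 0.39 ± 0.09. Among glucose carriers, Slc2a1 or GLUT1 rose by 1.13 ± 0.23 and Slc2a6, dim in wild type, by 2.42 ± 0.20, while the insulin-responsive Slc2a4 or GLUT4 fell by 1.35 ± 0.21. The muscle enolase Eno3 fell by 1.26 ± 0.18 and Ldhb by 1.40 ± 0.11, and Ldha (-0.23 ± 0.08) and Pkm (-0.07 ± 0.09) were not called. Pgd of the pentose phosphate branch rose by 0.95 ± 0.12. Other probe sets of Pfkl (0.30) and Pfkp (0.43) were not called. Muscle markers fell over the same arrays by the means given above.

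**Figure D3:**
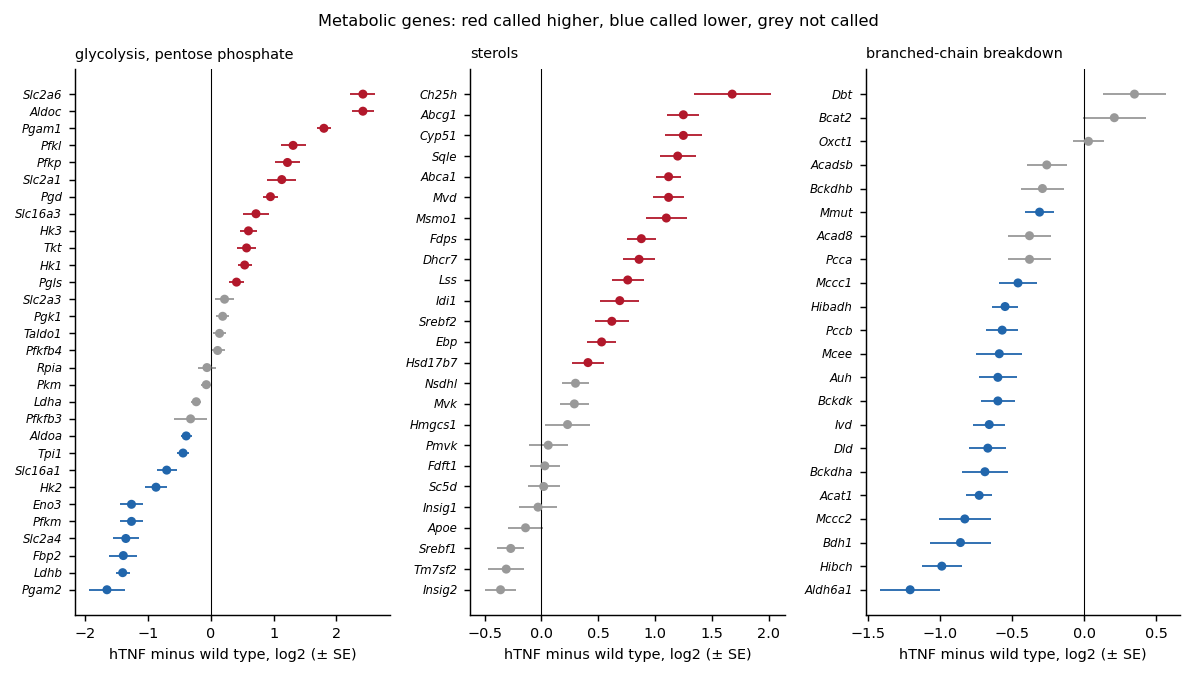
Difference between hTNF and wild type (log2, point and SE, 3 arrays against 2) of each tested gene of 3 metabolic lists, red where called higher, blue where called lower and grey where not called. Glycolytic genes run from Pgam2 at -1.65 to Slc2a6 at 2.42, and no gene of branched-chain breakdown was called higher.

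Sterol genes rose at both synthesis and efflux. Of 25 measured 14 rose and none fell (median 0.53), among them 10 of 17 synthesis enzymes. Squalene epoxidase Sqle read 9.10 and 9.42 in wild type and 10.45, 10.31 and 10.61 in hTNF (1.20 ± 0.16, limma adjusted p = 4.83e-04), and the lanosterol demethylase Cyp51 read 7.83 and 8.13 against 9.16, 9.08 and 9.45 (1.25 ± 0.16). The mevalonate enzyme Mvd rose by 1.12 ± 0.14. The cholesterol exporters Abca1 (1.12 ± 0.11) and Abcg1 (1.25 ± 0.14) rose in the same arrays. Ch25h, which makes the oxysterol that restrains sterol synthesis, rose by 1.68 ± 0.34, with hTNF replicate 1 at 9.77 above the other two (8.51 and 8.63), and the call ended without wild-type replicate 1 (adjusted p = 0.0502). Apoe was not called (-0.14 ± 0.15).

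Genes for the breakdown of branched-chain amino acids fell. Of 22 measured genes 15 fell and none rose (median -0.58), and 9 fell without wild-type replicate 1. Aldh6a1, the methylmalonate semialdehyde dehydrogenase of the valine branch, read 10.28 and 10.15 in wild type and 9.12, 9.15 and 8.74 in hTNF (-1.21 ± 0.21, limma adjusted p = 0.00235), and Hibch of the same branch fell by 0.99 ± 0.14. Mccc2 of the leucine branch fell by 0.83 ± 0.18 and the thiolase Acat1 by 0.73 ± 0.09. The entry enzyme Bcat2, near background, overlapped between groups (0.21 ± 0.22). Muscle and adipocyte markers fell over the same arrays, and their part in these falls was not tested.

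The mitochondrial ribosome and import machinery shifted downward by small steps. Of 41 genes 13 fell and none rose (median -0.32), and 32 of 41 had all hTNF arrays below both wild-type arrays, as did 35.1% of all genes. The count was 5 without wild-type replicate 1, 6 without replicate 2, 8, 8 and 7 without hTNF replicates 1, 2 and 3, 7 with the replicate block and 21 after quantile normalization. The import channel subunit Timm17a read 11.76 and 11.68 against 10.87, 10.82 and 10.73 (-0.91 ± 0.14, limma adjusted p = 0.00108). Timm23, the partner channel, fell by 0.51 ± 0.11, and the ribosomal protein Mrps28 by 0.81 ± 0.18.

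Of 28 measured nuclear receptors and coactivators 12 fell, 2 rose and 14 were not called (median -0.29). Esrrg, an orphan receptor of oxidative muscle, read 8.96 and 8.79 in wild type and 6.71, 6.72 and 6.64 in hTNF (-2.19 ± 0.14, limma adjusted p = 1.42e-05). The coactivator Ppargc1a fell by 1.73 ± 0.17 and Pparg, the receptor that drives fat cell formation, by 1.90 ± 0.19 (9.30 and 9.75 against 7.85, 7.56 and 7.48). These 3 genes are also characteristic of muscle or fat, whose markers fell. The mineralocorticoid receptor Nr3c2 fell by 1.16 ± 0.15, the oestrogen receptor Esr1 by 1.16 ± 0.16. The early-response receptor Nr4a1 fell by 1.39 ± 0.21. The glucocorticoid receptor Nr3c1 (-0.27 ± 0.16) and Esrra, a relative of Esrrg (0.23 ± 0.14), were not called. The 2 that rose, Rarb (0.67 ± 0.20, adjusted p = 0.0295) and Rara (0.48 ± 0.16, 0.0471), lost their call without wild-type replicate 2 (0.190 and 0.258), among other arrays, and none was called higher without wild-type replicate 1, wild-type replicate 2 or hTNF replicate 3.

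Of 12 measured retinoid genes 3 rose and 6 fell. The retinaldehyde dehydrogenase Aldh1a1 read 10.24 and 10.36 in wild type and 8.18, 8.13 and 7.90 in hTNF (-2.23 ± 0.31, limma adjusted p = 7.00e-04), and Aldh1a3 fell by 1.97 ± 0.19. Their relative Aldh1a2, which also makes retinoic acid, rose by 1.23 ± 0.28, although its wild-type arrays lay far apart (7.23 and 8.39 against 8.86, 9.27 and 8.99). Crabp2, which carries retinoic acid to the nucleus, rose by 2.17 ± 0.26 (7.62 and 7.44 against 10.24, 9.15 and 9.70), and the circulating carrier Rbp4, also made by fat cells, fell by 1.74 ± 0.16. Stra6, the receptor of Rbp4, rose by 1.25 ± 0.26 and lost its call without wild-type replicate 2 (adjusted p = 0.0503).

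Of 28 amino acid and peptide transporter genes 9 rose, 6 fell and 13 were not called. The lysosomal peptide transporter Slc15a3 read 7.08 and 7.69 in wild type and 10.03, 10.52 and 10.48 in hTNF, a rise of 2.96 ± 0.21 or 7.77-fold (limma adjusted p = 2.84e-05). Slc7a2, which takes up arginine, rose by 2.21 ± 0.31 (10.10 and 10.18 against 13.11, 11.76 and 12.19), with hTNF replicate 1 highest. The neutral amino acid carriers Slc7a10 (-2.10 ± 0.14), known from fat cells, and Slc38a3 (-1.49 ± 0.21), known from muscle and liver, fell. Of 26 zinc and copper genes 16 rose and 1 fell (median 0.44), with 8 higher without wild-type replicate 1, 9 without replicate 2, and 10 without hTNF replicate 1 or 2. The zinc importer Slc39a14, known from inflammation, read 9.41 and 9.46 against 11.08, 11.38 and 11.32 (1.82 ± 0.11, adjusted p = 1.42e-05). The metallothionein Mt2 rose by 1.25 ± 0.21 and the copper chaperone Atox1 by 0.76 ± 0.15.

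Genes of the early secretory pathway rose by less than 2-fold. Of 36 genes 17 rose and 1 fell (median 0.27), and the count was 6 without wild-type replicate 1, 11 without replicate 2, 8 without hTNF replicate 2 or 3, and 8 with the replicate block. Kdelr1, which retrieves resident proteins to the endoplasmic reticulum, read 10.84 and 10.61 against 11.72, 11.59 and 11.65 (0.93 ± 0.12, limma adjusted p = 5.10e-04). The disulfide isomerase Pdia3 rose by 0.77 ± 0.09 and the translocation channel Sec61a1 by 0.63 ± 0.10. Other probe sets of Pdia3 (0.23) and Sec61a1 (-0.01) were not called. No gene of the list reached a change of 2-fold.

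Hedgehog ligand, receptor and target genes were among those that fell. Of 13 measured members 10 fell and none rose (median -0.68), and 4 fell without wild-type replicate 1. Hedgehog ligands act by relieving the block that the receptor Ptch1 puts on Smo, which frees the Gli factors, and Ptch1, Gli1 and Hhip are themselves targets of the pathway. The ligand Dhh, made by Schwann cells and vessels, read 8.07 and 8.22 in wild type and 6.90, 7.13 and 7.16 in hTNF (-1.08 ± 0.15, limma adjusted p = 6.52e-04). Ptch1 read 10.60 and 10.57 against 9.79, 9.50 and 9.24 (-1.07 ± 0.19, adjusted p = 0.00246), and its other probe sets read -0.69 (adjusted p = 0.0127) and -0.11 (0.581). Gli1 read 8.71 and 8.32 against 7.40, 7.88 and 7.48 (-0.93 ± 0.20). The transgenic arrays lay below both wild-type arrays for all 3. The co-receptors Boc (-0.68 ± 0.11) and Cdon (-0.59 ± 0.09) fell, and Hhip, which binds the ligands, fell by 1.34 ± 0.28. Other probe sets of Hhip (-0.50, adjusted p = 0.126), Cdon (-0.28, 0.167) and Smo (-0.42, 0.0586) were not called. Wild-type replicate 1 was the higher array for Hhip (8.63 and 7.85) and Gli1, and without it their adjusted p was 0.0625 and 0.0675. Gli3 (0.06 ± 0.11) and Sufu (0.08 ± 0.11) were not called. Schwann cell markers fell in the same arrays, and cartilage markers in 11 of 16 cases (4 without wild-type replicate 1 and 7 without hTNF replicate 3).

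Among Notch genes 5 of 16 fell and 2 rose, with 1 and 1 without wild-type replicate 1 and 3 and 2 without replicate 2. Rbpj, the DNA-binding partner of Notch, rose by 0.72 ± 0.11 (11.23 and 11.32 against 12.11, 11.92 and 11.96, limma adjusted p = 0.00137) and by 0.95 and 1.00 on 2 other probe sets. Hes1, a target, fell by 0.82 ± 0.16, with an adjusted p of 0.0520 without wild-type replicate 1. Rbpj and its target therefore differed in direction.

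Among Wnt genes 12 of 34 measured fell, 4 rose and 18 were not called (median -0.26), with 2 higher without wild-type replicate 1 or 2. The list shares were 35.3% lower and 11.8% higher, where 19.6% of all genes fell and 16.5% rose. Frizzled receptors fell in 5 of 10 cases and rose in 1. Of 9 Wnt ligands 2 fell, a share near that of all genes. Fzd4, a receptor of vessels and stroma, read 10.83 and 10.79 in wild type and 9.70, 9.53 and 9.48 in hTNF (-1.24 ± 0.11, limma adjusted p = 6.72e-05), and Fzd1 rose by 0.92 ± 0.14, with transgenic arrays at 10.59, 10.98 and 11.03. The groups did not overlap for either receptor. Lgr4, a receptor of the R-spondins, which strengthen Wnt signals, fell by 0.99 ± 0.14. The ligand Wnt5a fell by 0.93 ± 0.14 (7.51 and 7.58 against 6.62, 6.68 and 6.55). The R-spondin Rspo2 rose by 0.89 ± 0.20 and Rspo3 fell by 0.84 ± 0.18, calls that ended without wild-type replicate 1 (adjusted p = 0.0610) and without wild-type replicate 2 (0.0592).

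Ligands and receptors of the FGF, PDGF, EGF and HGF families were called lower more often than higher, but their median lay near that of all genes (-0.01 against -0.02). Of 31 measured 11 fell (35.5%), 3 rose (9.68%) and 17 were not called, where 19.6% of all genes fell and 16.5% rose. The lower count was 6 without wild-type replicate 1 and 7 without replicate 2. The stromal growth factor Fgf7 fell by 1.01 ± 0.14 (9.68 and 9.63 against 8.68, 8.76 and 8.50, limma adjusted p = 6.04e-04), and Kitl, the ligand of KIT on mast cells, by 1.00 ± 0.14 (10.46 and 10.90 against 9.77, 9.75 and 9.52). Fgf1 (-1.43 ± 0.18), the intracellular Fgf13 (-1.84 ± 0.21), the decoy-like receptor Fgfrl1 (-1.41 ± 0.14) and Egf (-1.82 ± 0.17) fell. The receptors Fgfr1 (0.00 ± 0.10) and Egfr (0.21 ± 0.14) were not called. The EGF-family ligand Ereg rose from below the dim filter (5.66 and 5.19 against 7.61, 6.71 and 6.87, 1.64 ± 0.31) and Pdgfb rose by 0.77 ± 0.12.

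Among guidance cues secreted semaphorins fell. Of 28 semaphorins, plexins and neuropilins 7 rose and 8 fell. The secreted class 3 semaphorins, which repel axons and act on vessels, fell in 5 of 7 cases and none rose. Sema3g read 8.59 and 8.53 in wild type and at most 7.29 in hTNF (-1.44 ± 0.14, limma adjusted p = 1.15e-04), and Sema3a read 8.61 and 8.27 against 7.26, 7.61 and 7.41 (-1.01 ± 0.16). The membrane-bound Sema4a, a co-stimulator of T cells, read 8.23 and 8.35 against 9.99, 10.33 and 10.44 (1.96 ± 0.15, adjusted p = 3.36e-05). Of its class 4 only 2 of 5 members rose and none fell. Sema4d rose by 1.54 ± 0.29 and 1.25 on 2 probe sets and fell by 1.17 on another (adjusted p = 0.00161), so its direction differs between probe sets. The receptors Plxnb2 (1.33 ± 0.13) and Nrp2 (1.27 ± 0.12) rose, and Nrp1 was not called (-0.01 ± 0.11). The repellents Slit2 (-1.19 ± 0.15) and Slit3 (-1.01 ± 0.15) fell, and of 24 ephrins, slits, netrins and their receptors 9 fell and 3 rose, with 5 lower without wild-type replicate 1 or hTNF replicate 2 and 1 higher without wild-type replicate 2 or hTNF replicate 2.

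**Figure D4:**
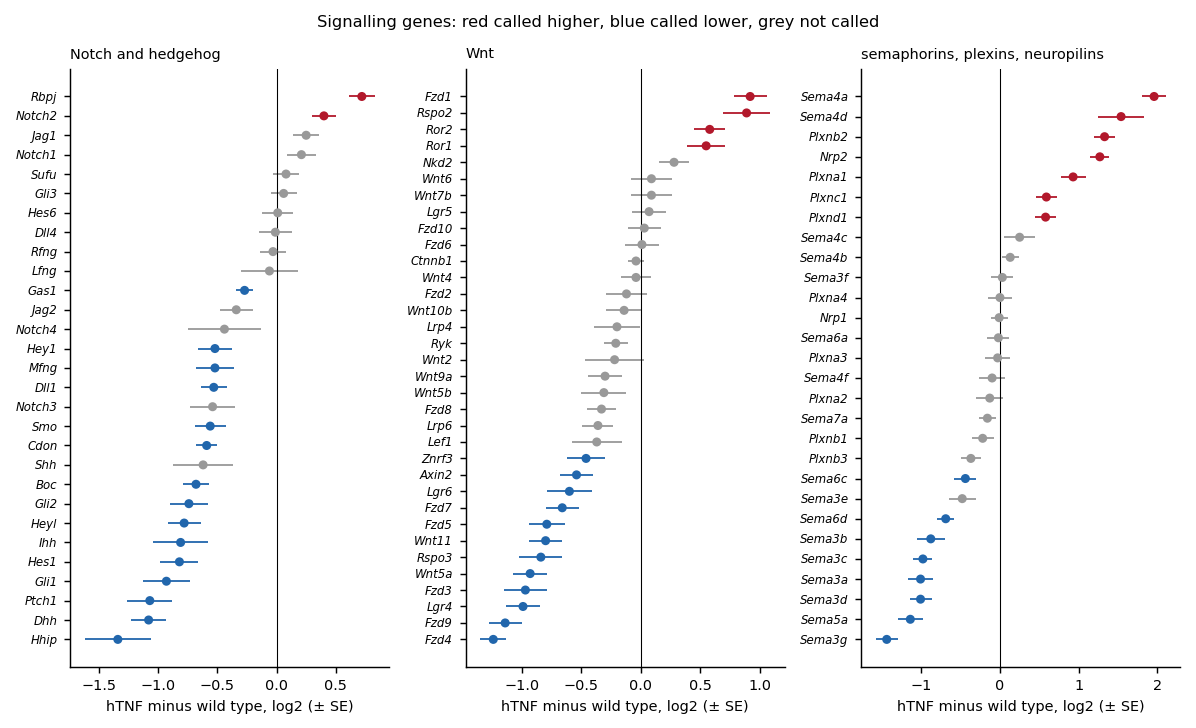
Difference between hTNF and wild type (log2, point and SE, 3 arrays against 2) of each tested gene of the Notch and hedgehog, Wnt and semaphorin lists, red where called higher, blue where called lower and grey where not called. Hedgehog members such as Hhip (-1.34) and class 3 semaphorins such as Sema3g (-1.44) lie at the low end, Rbpj (0.72) and Sema4a (1.96) at the high end.

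Genes of nerve and pain signalling fell more often than they rose. Of 22 measured 8 fell and 3 rose, with 5 lower without wild-type replicate 1 or hTNF replicate 1. Neuropeptide Y, the sympathetic transmitter Npy, read 9.88 and 9.96 in wild type and 8.30, 8.10 and 8.22 in hTNF (-1.71 ± 0.12, limma adjusted p = 2.83e-05). Ntrk3, the receptor of neurotrophin 3, read 8.61 and 8.43 against 6.75, 6.90 and 6.71 (-1.73 ± 0.14). The groups did not come near each other for either gene. Ntrk2 fell by 1.25 ± 0.11 on its brightest probe set and read -1.95 on another, while the remaining one was not called (-0.05). The enkephalin gene Penk read 10.74 and 9.16 against 7.77, 8.91 and 7.56 (-1.87 ± 0.53, adjusted p = 0.0233), and without wild-type replicate 1 its adjusted p was 0.224, without hTNF replicate 1 0.0582 and without hTNF replicate 3 0.0748. Against that direction, the inducible bradykinin receptor Bdkrb1 rose by 1.48 ± 0.23 from below the dim filter. The cation channel Trpv2, also known from macrophages, rose by 1.43 ± 0.15 and the prostacyclin receptor Ptgir by 1.33 ± 0.19. Gfra2 of the same list was not called higher on its brightest probe set, although its other probe sets rose by 0.75, 1.79 and 2.42.

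Transcripts of matrix sugar enzymes changed at single genes. Of 42 genes of hyaluronan and glycosaminoglycan metabolism 15 rose and 6 fell (median 0.15), with 7, 8 and 9 higher without wild-type replicate 1, wild-type replicate 2 and hTNF replicate 2. Tnfaip6, which links hyaluronan to inter-alpha-inhibitor, rose by 2.61 ± 0.23 from below the dim filter (5.16 and 4.94 against 8.15, 7.35 and 7.47, limma adjusted p = 7.41e-05). Heparanase Hpse, which cuts heparan sulfate, read 8.14 and 8.64 against 10.14, 10.10 and 10.36 (1.81 ± 0.17). The heparan sulfotransferases Hs6st2 (-1.62 ± 0.13) and Hs3st1 (-1.22 ± 0.15) fell. A further sulfotransferase, Hs2st1, rose by 0.36 ± 0.11 (limma adjusted p = 0.0273), a call that ended without wild-type replicate 1 (adjusted p = 0.103), wild-type replicate 2 (0.124), hTNF replicate 2 (0.0731) or hTNF replicate 3 (0.0953), and Hs6st1 was not called (0.03 ± 0.15). The hyaluronan synthase Has1 fell by 0.66 ± 0.12 and Has2 was not called (0.26 ± 0.21). Of the core proteins, Sdc1 rose by 1.31 ± 0.13 (10.14 and 10.08 against 11.25, 11.61 and 11.41) and by 1.20 to 1.30 on 3 other probe sets, and Gpc3 fell by 1.28 ± 0.15. Of 8 syndecans and glypicans 2 rose and 2 fell.

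Transcripts of single surface glycan enzymes changed in both directions. The lactosylceramide synthase B4galt6 rose by 1.61 ± 0.21 and the sialyltransferase St8sia6 by 1.57 ± 0.25, while St3gal5, which makes the ganglioside GM3 from lactosylceramide, fell by 1.08 ± 0.13 (10.07 and 9.68 against 8.81, 8.79 and 8.77, limma adjusted p = 3.38e-04). Over the 29 transferases measured 12 rose and 6 fell, with 2 lower without wild-type replicate 2 and 3 without hTNF replicate 3. Of 22 S100 proteins, annexins and galectins 10 rose and 2 fell, with 1 lower without wild-type replicate 1. Galectin 3, Lgals3, read 13.03 and 13.09 against 14.22, 14.11 and 14.15 (1.10 ± 0.06, adjusted p = 1.18e-05). S100a10 (1.06 ± 0.10) and its partner Anxa2 (0.85 ± 0.08) rose, although a second Anxa2 probe set read 0.33 and was not called. Of 27 tetraspanins and MS4A proteins 10 rose and 6 fell, and of the MS4A family alone 4 of 8 rose. Ms4a6d read 7.64 and 7.33 against 10.22, 10.33 and 10.21 (2.77 ± 0.13, adjusted p = 4.15e-06), and Ms4a7 rose by 2.23 ± 0.16. The tetraspanin Tspan8 fell by 1.69 ± 0.31.

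Of 35 transcription factors measured 12 rose, 8 fell and 15 were not called, with 5 lower without wild-type replicate 1. Besides Spi1, the myeloid factor Tfec rose by 2.00 ± 0.26 (6.46 and 7.40 against 8.67, 8.87 and 9.25, limma adjusted p = 4.95e-04), and Hif1a, the oxygen-sensing factor, by 1.05 ± 0.13 (10.96 and 11.35 against 12.07, 12.27 and 12.27). Cebpb rose by 1.04 ± 0.15 and Runx1 by 1.02 ± 0.12, although 2 of its 5 other probe sets read -0.03 and 0.09 and were not called. Klf15, a glucocorticoid target of muscle and fat, fell by 1.52 ± 0.15 and Mef2c, a factor of muscle and cartilage, by 1.37 ± 0.17.

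Among cytoplasmic signal regulators no single direction prevailed. Of 33 MAP kinase genes 4 rose and 9 fell, with 5 lower without wild-type replicate 1. Mapk12, the p38 gamma of muscle, fell to a level 2.83-fold lower, and the phosphatase Dusp10, which limits p38 and JNK, read 9.36 and 8.83 against 7.82, 7.65 and 7.63 (-1.40 ± 0.21, limma adjusted p = 9.76e-04). Map3k14 or NIK, the kinase of non-canonical NF-kappaB signalling, rose by 0.76 ± 0.13. Of 21 RGS proteins and phosphodiesterases 6 rose and 9 fell, among them the pericyte-enriched Rgs5 (-0.81 ± 0.08) and the cAMP phosphodiesterase Pde4d (-1.45 ± 0.26) on the lower side and Rgs19 (1.21 ± 0.15), Rgs10 (1.08 ± 0.16) and Pde1b (1.29 ± 0.16) on the higher. Endothelial markers fell in 11 of 14 cases on the same arrays, and in 7, 5, 4, 10 and 7 cases without wild-type replicates 1 and 2 and hTNF replicates 1, 2 and 3.

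**Figure D5:**
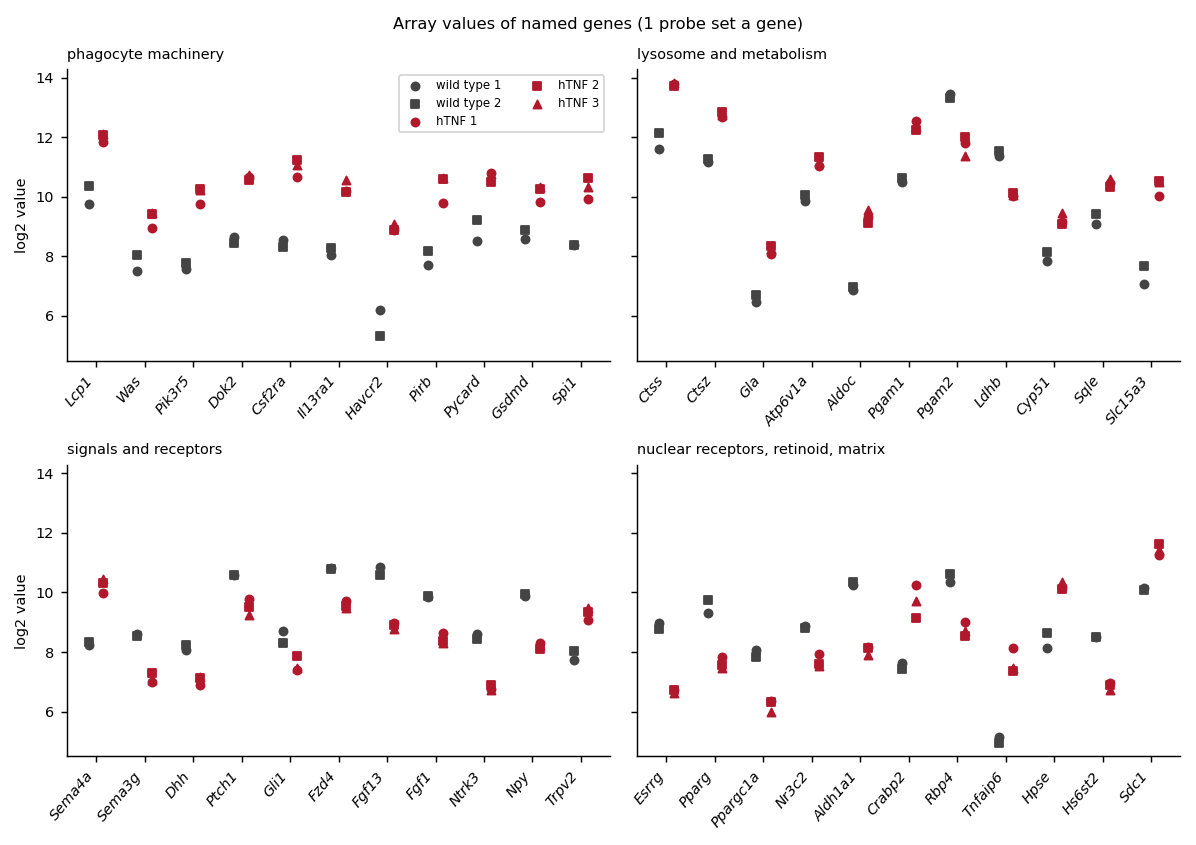
Log2 value of named genes on each of 2 wild-type (grey) and 3 hTNF (red) arrays, 1 point an array and 1 probe set a gene, in 4 panels by programme; levels of different genes are not comparable. Most genes drawn were chosen for a called change without overlap, so the lack of overlap in the panels is no result; Havcr2 in wild type (6.20 and 5.34) lies below the dim filter.

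Many changes of at least 2-fold lay outside all lists, 403 of 632 genes called higher and 624 of 747 called lower. Marker lists held larger ones, up to 6.40 for macrophages and down to -3.96 for adipocytes. The genes named next were picked as the largest outside the lists. The pattern receptor Tlr2 read 9.02 and 8.97 in wild type and 11.86, 12.56 and 12.61 in hTNF, a rise of 3.35 ± 0.20 or 10.2-fold (limma adjusted p = 1.28e-05). Cthrc1, a secreted protein of activated fibroblasts, read 7.81 and 8.17 against 10.55, 10.99 and 10.50 (2.69 ± 0.17, adjusted p = 1.52e-05), and the tenascin Tnn rose by 2.58 ± 0.31 (7.56 and 7.16 against 9.26, 10.48 and 10.08). These 2 matrix proteins rose in every transgenic array. The lipoprotein-associated phospholipase Pla2g7 (2.76 ± 0.28), the oxidase subunit Cybb (2.82 ± 0.21), the pyrin gene Mefv (2.79 ± 0.32) and the protease inhibitor Slpi (2.63 ± 0.26) rose by similar amounts. The ubiquitin ligase Rnf128 rose by 2.73 ± 0.22, Igsf6 by 2.86 ± 0.28, Glipr1 by 2.70 ± 0.26 and AA467197 by 3.05 ± 0.33, the last with its transgenic arrays apart (11.24, 9.86 and 10.56). The transcript AI504432 rose by 2.53 ± 0.29.

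The largest falls outside the lists included genes not specific to muscle. Ces1d, a carboxylesterase of fat, read 9.50 and 9.90 in wild type and 7.20, 7.39 and 7.30 in hTNF (-2.40 ± 0.15, limma adjusted p = 1.35e-05). Gpr1, a receptor of chemerin, read 9.73 and 9.19 against 6.86, 7.12 and 6.93 (-2.49 ± 0.18), and Rarres2, the chemerin gene itself, fell by 0.78 ± 0.13. The ligand and its receptor thus fell together. Cyp2e1 (-2.62 ± 0.19), the synuclein Sncg (-2.33 ± 0.23), Meltf (-2.34 ± 0.19) and Glb1l2 (-2.44 ± 0.18) fell as well. Adipocyte markers fell over the same arrays in 16 of 17 cases, and their part in these falls was not tested. The RNA-binding protein Stau2 fell by 2.24 ± 0.25 on its brightest probe set, and its other probe sets read -1.30 and -0.62. The others were genes of striated muscle, Myoz2 (-2.65 ± 0.30), Fabp3 (-2.61 ± 0.30), Smtnl1 (-2.33 ± 0.33), Trim63 (-2.28 ± 0.26) and Ankrd2 (-2.20 ± 0.22).

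The arrays labelled Sphk1 null were set against the same 2 wild-type arrays, so the 2 comparisons share their controls and are only given side by side. Of the actin list 35 rose and 1 fell, of the lysosomal list 30 rose and 1 fell, and of the Notch and hedgehog list 2 rose and 16 fell, where 19.1% of all genes were called higher and 23.8% lower. In hTNF the same lists gave 32 and 1, 26 and 0, and 2 and 15, the last with 1 higher and 5 lower without wild-type replicate 1.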

How the data were processed

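Whole-ankle RNA was read on Affymetrix mouse arrays, and the authors deposited 1 log2 value per probe set and array. The submitters' processing notes list RMA, MAS5 and the Affymetrix Expression Console without saying which produced these log2 values. Of 45101 probe sets, 34945 were annotated to 1 gene, 932 to several, 9160 to none and 64 were controls. Probe sets above the table median (6.87) on at least 2 of 8 arrays were tested, 24115 in all, with limma 3.58.1 in R 4.3.3 (1 mean per group, all 8 arrays, intensity trend, Benjamini-Hochberg adjustment), after the script was checked on simulated data. The number of arrays limits the precision. The comparison and the gene lists were chosen with earlier results of these data known. Named genes were, for each list, up to 5 with the largest called change without overlap and up to 2 against the list's direction (filled up to 2 by the smallest p where fewer passed), then the 12 largest rises and falls above the dim filter outside all lists, the tissue markers, and ligands, receptors or antagonists from the same lists; other list members (among them the isozymes of glycolysis, Boc, Cdon, Esr1, Fgf7, Kitl, Cebpb, Runx1, Rgs5, Tfeb and the genes with printed promoters) were added after their values were seen. Alternatives covered normalization, filters, offset, variance model, arrays fitted, replicate block, covariates, probe set choice and left-out arrays.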

Additional observations from a re-analysis of the deposited data

How the results depend on the processing

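With each wild-type and hTNF array left out in turn, the probe sets called numbered 4695 to 7124 (2432 to 3685 higher and 2263 to 3439 lower), against 7965; the lowest counts were those without wild-type replicate 1. Over all other alternatives the total lay between 5775 (the stricter filter, which tests fewer probe sets) and 8981 (only the 5 arrays). An alternative chosen after seeing the data left out the 3 arrays whose Eif2s3y value lay above that of the other Xist-high arrays. These were wild-type replicate 2, hTNF replicate 1 and Sphk1-null replicate 1. Wild-type replicate 1 was then the only wild-type array, so this alternative cannot show whether sex or pooling matters. Of 221 genes, 27 calls were lost without wild-type replicate 1, 18 without replicate 2, and 5 to 14 without an hTNF array, and none reversed there. Eprs alone changed sign: its probe set with the largest variance read 0.01 (limma adjusted p = 0.986), so the call was lost. Its remaining probe set read -0.08 and was not called, and the cause was not tested. The 221 genes were those picked by rule, most for a large call without overlap, and leave out list members added after their values were seen. Counts of the programme lists moved beyond a set limit in 6, 11 and 10 cases without hTNF replicates 1, 2 and 3, and in more cases without either wild-type array.

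Replicate numbers were not taken as a pairing: deviations from the group means of same-numbered arrays correlated at -0.048 and -0.167 between wild type and hTNF, at 0.273 and 0.185 between wild type and Sphk1 null, and at 0.228, 0.054 and 0.251 between hTNF and Sphk1 null, so not every pair was above 0.1. With the number as a replicate block 6515 probe sets were called (3233 higher, 3282 lower) and 6 of 221 named calls were lost.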

Other observations

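Transcripts of purine receptors and enzymes moved in both directions. Of 22 genes 7 rose (31.8%) and 4 fell (18.2%), where 16.5% of all genes rose and 19.6% fell. The UDP receptor P2ry6 read 9.04 and 8.71 in wild type and 10.49, 10.69 and 10.85 in hTNF (1.80 ± 0.14, limma adjusted p = 3.81e-05), and the nucleoside phosphorylase Pnp rose by 1.16 ± 0.12. The ATP-gated channel P2rx4 rose by 1.26 ± 0.15 on its brightest probe set, while P2rx1 fell by 1.03 ± 0.13. The muscle AMP deaminase Ampd1 fell by 1.66 ± 0.25.

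Of 24 aquaporins, carbonic anhydrases and sodium pump genes 5 rose (20.8%) and 9 fell (37.5%), where 16.5% of all genes rose and 19.6% fell. The carbonic anhydrase Car14 read 9.36 and 9.05 against 7.99, 7.92 and 7.52 (-1.40 ± 0.16, limma adjusted p = 2.80e-04), and the pump modulator Fxyd6 fell by 1.35 ± 0.16. Car12 rose from below the dim filter by 1.75 ± 0.26.

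Translation genes differed little from all genes as a list (median 0.06 against -0.02). Of 33 genes of ribosome biogenesis and translation 6 rose (18.2%) and 4 fell (12.1%), where 16.5% of all genes rose and 19.6% fell. The lower count was 1 without either wild-type array or hTNF replicate 3 and 2 without hTNF replicate 2. The helicase Eif4a1 read 11.91 and 11.94 against 12.90, 12.81 and 12.83 (0.92 ± 0.09, limma adjusted p = 1.56e-04), Myc rose by 0.75 ± 0.12, and the muscle and neuronal elongation factor Eef1a2 fell by 1.41 ± 0.16. Of 30 tRNA synthetases and amino acid synthesis genes 3 rose and 4 fell, with 1 and 2 without either wild-type array and 2 lower without hTNF replicate 2 or 3. Aldh18a1, which starts proline synthesis from glutamate, rose by 0.96 ± 0.15. Of 27 autophagy genes 1 rose and 5 fell, with 2, 3, 2 and 3 lower without wild-type replicate 1 and hTNF replicates 1, 2 and 3, and none higher without hTNF replicate 2 or 3. The autophagy list thus had 3.70% higher and 18.5% lower, the lower share being near the 19.6% of all genes. Pink1, the kinase that marks damaged mitochondria, fell by 0.97 ± 0.16 and Map1lc3a by 0.73 ± 0.13.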
